A study of Mus musculus with 6 samples.

Results

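Amino acid transporters are membrane proteins of the solute carrier (Slc) families that bring amino acids, and in some families their relatives such as taurine, creatine, betaine and GABA, into cells and organelles. The members here were all genes of the families Slc1, Slc3, Slc6, Slc7, Slc36, Slc38 and Slc43 with a probe set carrying that 1 gene symbol, chosen by name and not by their values. They number 64 of the 22180 genes tested. Cells of a mouse colorectal cancer were injected into white adipose tissue or into non-adipose tissue, and tumours of 1 to 1.5 cm3 were profiled on whole-transcript Affymetrix arrays, with 3 mice, 3 tumours and 3 arrays per site. The 2 groups are called white adipose and non-adipose; the labels list no treatment or genetic change in either, while nothing used here names the cancer line, the mouse strain, the age or the exact injection sites. The comparison asks how the place of growth is reflected in the tumour's RNA.

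Tumour cells take up amino acids through a division of labour. Exchangers such as Slc1a5 and the Slc7a5-Slc3a2 pair trade 1 amino acid for another, sodium-coupled carriers of the Slc38 family load the cell with glutamine and alanine, and Slc7a11, paired with Slc3a2, imports cystine for glutathione in exchange for glutamate. When amino acids run short, the transcription factor ATF4 raises many of these carriers together with enzymes such as asparagine synthetase (Asns); ATF4 and its partners bind composite elements that hold the letters TGATGNAA.

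The upstream sequence of 4 genes is shown: Slc7a11 and Slc1a4 are members that hold these letters near their start, Slc3a2 is the partner chain of Slc7a11, and Asns is a response gene that holds them. Capitals mark TGATGNAA on either strand, each run goes from 100 bases before the start of transcription to its 10th base; Asns is no transporter. Sequences and build (GRCm38.p6) are from RefSeq, and all 4 lie on the minus strand: Slc7a11 at chr3:50443604-50443713, Slc1a4 at chr11:20332704-20332813, Slc3a2 at chr19:8713888-8713997 and Asns at chr6:7693200-7693309.
Slc7a11: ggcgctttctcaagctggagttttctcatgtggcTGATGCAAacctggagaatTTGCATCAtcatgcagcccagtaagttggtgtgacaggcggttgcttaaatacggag
Slc1a4: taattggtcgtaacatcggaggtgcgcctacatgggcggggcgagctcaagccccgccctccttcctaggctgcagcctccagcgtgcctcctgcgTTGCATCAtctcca
Slc3a2: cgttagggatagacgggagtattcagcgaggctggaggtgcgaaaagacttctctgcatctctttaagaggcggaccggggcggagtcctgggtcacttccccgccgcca
Asns: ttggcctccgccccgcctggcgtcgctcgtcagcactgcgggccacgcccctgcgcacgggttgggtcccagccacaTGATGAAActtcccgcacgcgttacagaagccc

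Slc7a11 held a copy on each strand, beginning 66 and 47 bases before the start, and Slc1a4 held a copy across its start. In windows of 300 bases (250 before the start and 50 from it), 47 of the 64 members had a RefSeq promoter, and 4 of these 47 genes held the letters: Slc7a11, Slc1a4, Slc7a7 and Slc6a21. That is 8.51% of the members matched, against 4.51% of 27025 genes with a promoter; of 24 matched genes of the amino acid response list described further on, 9 held them (37.5%). The Slc3a2 window had no match. Slc1a5 and Slc7a5 were among the members without a RefSeq promoter here. A match describes letters and does not show binding.

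The values are log2 signals, so a difference of 1 is a 2-fold difference. No detection calls were used; as a guide to the dim end, the mean signal of 33 members lay above 5.44, the 95th percentile of 1088 olfactory receptor genes, and that of the other 31 did not. Array medians ran from 5.66 to 5.69, and the arrays correlated at 0.983 to 0.995 across genes. Of 12 intestinal epithelial markers, 5 lay above that olfactory level (Krt8, Krt18, Krt19, Muc2 and Cdh1), while Epcam (4.61 to 5.29), Vil1 (4.39 to 4.88), Cdx2 and Cdh17 did not: these defining markers of the labelled colorectal origin were no brighter than the dim end. Of 9 adipocyte markers measured, 6 lay above it (Plin1, Fabp4, Lipe, Pparg, Retn and Pnpla2) and Adipoq, Lep and Cidec did not; the list mean was 5.77 to 5.93 in non-adipose and 5.66 to 6.08 in white adipose arrays. Skeletal muscle markers had a lower mean in white adipose tumours for 9 of 10, but the sites overlapped in the list mean, which was 6.20, 5.31 and 6.82 in the non-adipose and 5.35 to 5.50 in the white adipose arrays; Myh1, Myh4 and Mylpf were not above the olfactory level. The list mean of skin keratinocyte markers was high in white adipose replicate 1 (8.23, against 5.16 to 6.27 in the other arrays). In bulk tumour, fewer cells of a type and less RNA per cell cannot be told apart.

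**Figure D1:**
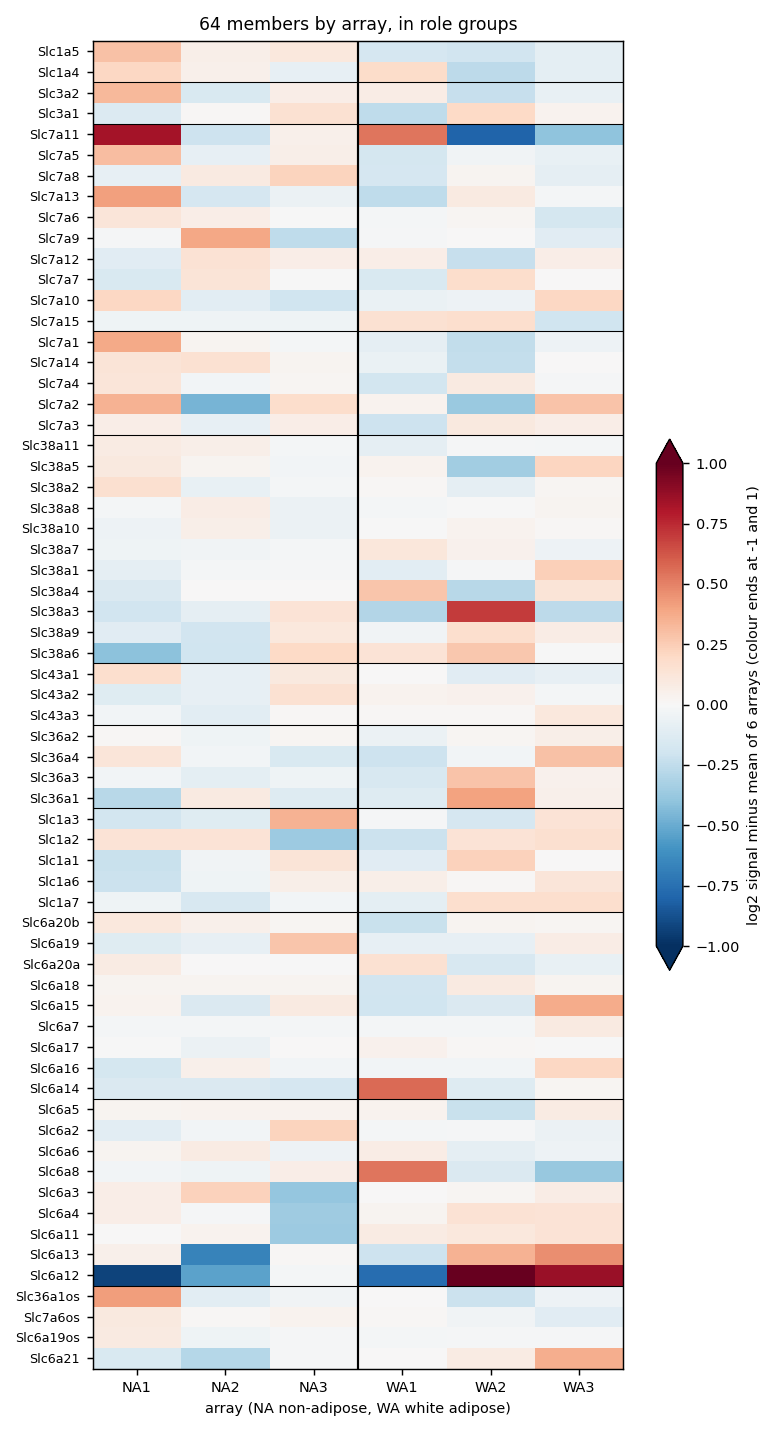
Heat map of the 64 members, a row per gene in role groups and a column per array (NA non-adipose, WA white adipose, with the replicate number). Colour is the log2 signal minus the gene's mean over the 6 arrays and saturates at -1 and 1. Slc6a12 (range 2.30 over the arrays) and Slc7a11 (1.63) vary most, and in both the dark cells fall on arrays of both sites.

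Most members differed little between the sites. The members' median log2 difference, white adipose minus non-adipose, was 0.0049, beside -0.00043 over all genes, and the median size of a difference was 0.080, beside 0.077. White adipose tumours had the higher mean for 33 of the 64 and the lower mean for 31, beside 11033 and 11147 of all genes. The counts by role given below rest on few genes each and are no result about a role group. No member passed an adjusted p of 0.05 (limma with Benjamini-Hochberg adjustment over all genes), where the background is 0% because no gene on the array passed; the members' adjusted p-values ran from 0.936 to 0.999. At an unadjusted p under 0.05, 1 member was lower (Slc1a5; 1.56% of the members, background 2.13%) and 1 was higher (Slc6a21; 1.56%, background 1.66%). The 3 arrays of each site did not overlap for 3 lower members (Slc1a5, Slc7a1 and Slc7a14; 4.69%, background 3.97%) and 3 higher members (Slc6a21, Slc6a14 and Slc6a11; 4.69%, background 3.34%). These shares are near the background and are no result about the transporters as a set. The 3 higher members without overlap, and Slc7a14 among the lower, had a mean signal under the olfactory level. The median half-width of a member's 95% interval was 0.27, so differences smaller than that were mostly not resolvable with 3 arrays per site.

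**Figure D2:**
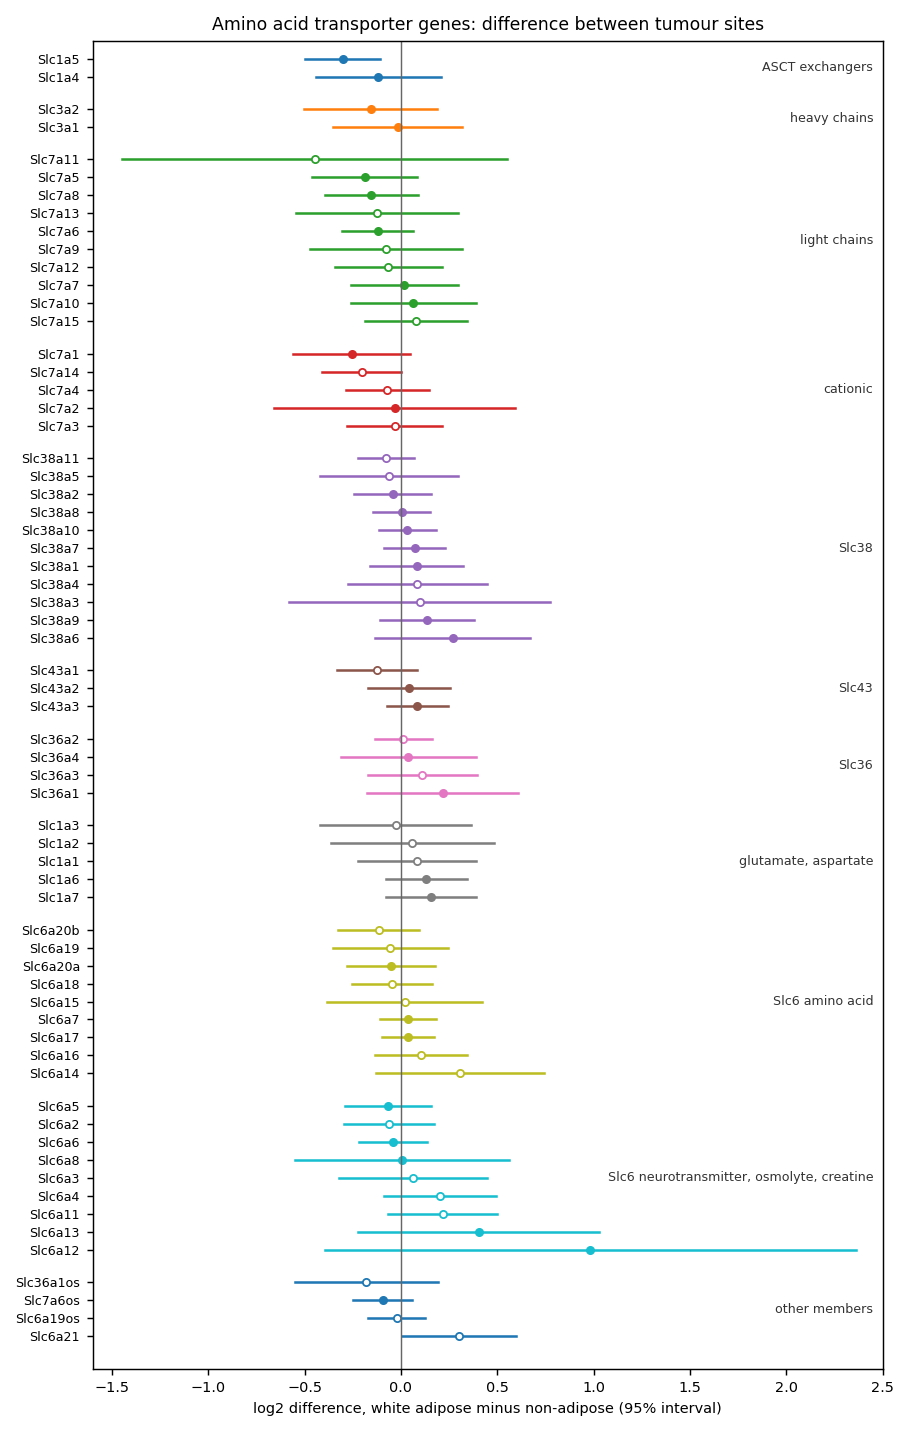
Log2 difference (white adipose minus non-adipose) of each member, with the 95% interval of the limma fit as a bar, by role. Filled points mark members with a mean signal above the 95th percentile of olfactory receptor genes. The Slc1a5 interval ends below 0 at -0.11, that of Slc6a21 begins just above 0, and the other 62 bars cross 0, the widest being Slc6a12 from -0.39 to 2.36.

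Slc1a5 (ASCT2), the sodium-dependent exchanger that carries glutamine and other small neutral amino acids, was the member with the smallest p. Its log2 signal was 9.09, 8.86 and 8.90 in non-adipose replicates 1, 2 and 3 and 8.64, 8.61 and 8.70 in white adipose replicates 1, 2 and 3. Every white adipose array thus lay below every non-adipose one. The means were 8.95 ± 0.12 (SD, n = 3) and 8.65 ± 0.049 (SD, n = 3), which is 1.23-fold lower in white adipose tumours: a log2 difference of -0.30 (SE 0.080; 95% interval -0.50 to -0.11), with an unadjusted limma p of 0.00878 and an adjusted p of 0.936. With 1 array left out in turn the difference stayed between -0.35 and -0.23. A second, dimmer Slc1a5 probe set did not show it: 6.66, 6.42 and 6.12 in non-adipose and 6.39, 6.39 and 6.37 in white adipose arrays, a difference of -0.013 (SE 0.14), and the mean of both probe sets gave -0.16 with an unadjusted p of 0.167. Macrophage markers, 10 of 10 above the olfactory level, had list means that did not overlap either, 9.04 to 9.16 in non-adipose and 8.94 to 9.03 in white adipose arrays; 4 of the 10 had a lower and 6 a higher white adipose mean, and Itgam was at -0.22 (SE 0.073). Muscle markers had list means of 5.31 to 6.82 and 5.35 to 5.50. The part of either list in the Slc1a5 difference was not tested.

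Slc1a4 (ASCT1), the related exchanger for alanine, serine and cysteine, did not separate the sites. It read 7.98, 7.83 and 7.70 in the non-adipose and 7.96, 7.52 and 7.68 in the white adipose arrays, so the groups overlapped, and the difference was -0.12 (SE 0.13), from -0.24 without white adipose replicate 1 to -0.017 without white adipose replicate 2.

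Heteromeric transporters join a heavy chain, which takes the complex to the membrane, to a light chain that moves the amino acid. Slc3a2 (4F2hc or CD98), the heavy chain of most light chains here, read 10.56, 10.08 and 10.30 in non-adipose and 10.31, 10.002 and 10.16 in white adipose arrays. The groups overlapped, with a difference of -0.16 (SE 0.14) that ran from -0.27 without non-adipose replicate 2 to -0.034 without non-adipose replicate 1. Slc3a1, the heavy chain of the cystine and dibasic carrier of kidney and gut, differed by -0.017 (SE 0.14).

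Of the 10 light chains, the mean was lower in white adipose tumours for 7 and higher for 3, beside 11147 and 11033 of all genes. The median difference of the 10 was -0.10, and none was at an unadjusted limma p under 0.05. Slc7a5 (LAT1), the exchanger for leucine and other large neutral amino acids, read 9.62, 9.22 and 9.36 in non-adipose and 9.13, 9.27 and 9.24 in white adipose arrays. Non-adipose replicate 2 lay among the white adipose values; the difference was -0.19 (SE 0.11), -0.080 without non-adipose replicate 1 and -0.28 without non-adipose replicate 2. Slc7a8 (LAT2) read 8.58, 8.76 and 8.88 against 8.49, 8.69 and 8.57, a difference of -0.15 (SE 0.099) that ran from -0.23 without non-adipose replicate 1 to -0.083 without non-adipose replicate 3. Slc7a6, a light chain that exchanges cationic for neutral amino acids, read 8.44, 8.39 and 8.32 against 8.30, 8.34 and 8.15 and differed by -0.12 (SE 0.076), or -0.062 without white adipose replicate 3. Its groups overlapped by little: white adipose replicate 2 was just above the lowest non-adipose array. Slc7a7, which has the same exchange activity and is known from macrophages and gut, read 7.42, 7.70 and 7.57 against 7.42, 7.75 and 7.58 and differed by 0.018 (SE 0.11).

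Slc7a11 (xCT), the cystine-glutamate exchanger, was the light chain that varied most. It read 5.98, 4.95 and 5.20 in non-adipose and 5.69, 4.35 and 4.75 in white adipose arrays. Replicate 1 was the highest array of each site, and the groups overlapped. The site difference was -0.45 (SE 0.41; 95% interval -1.45 to 0.55), -0.14 when non-adipose replicate 1 was left out and -0.83 when it was white adipose replicate 1. The kept probe set was dim, under the olfactory level; a second, dimmer probe set had its highest value in white adipose replicate 1 (3.55) and then 3.35 and 3.32 in non-adipose replicates 1 and 3.

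The members grouped as cationic amino acid transporters, a class named for carrying arginine and lysine, number 5. All 5 had a lower mean in white adipose tumours, beside 11147 of all 22180 genes. The median difference was -0.070, and none was at an unadjusted p under 0.05. Only 2 of the 5 lay above the olfactory level, and Slc7a4 (-0.070, SE 0.089) and Slc7a3 (-0.033, SE 0.10) were under it. Slc7a1 (CAT1), the widespread arginine carrier, read 8.01, 7.65 and 7.61 in non-adipose and 7.54, 7.38 and 7.58 in white adipose arrays. The groups did not overlap, yet the gap between them was narrow and non-adipose replicate 1 stood above the rest. The difference was -0.26 (SE 0.12), 1.19-fold lower, and -0.13 without non-adipose replicate 1. Slc7a2 (CAT2), the carrier that supplies arginine to activated macrophages, read 7.05, 6.24 and 6.88 against 6.74, 6.34 and 6.99 and differed by -0.033 (SE 0.26), its low arrays being replicate 2 of both sites. Slc7a14, a lysosomal and mainly neural family member, read 5.29, 5.31 and 5.19 against 5.09, 4.92 and 5.16; the groups did not overlap, the difference was -0.20 (SE 0.084), or -0.13 without white adipose replicate 2, and the signal was under the olfactory level.

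**Figure D3:**
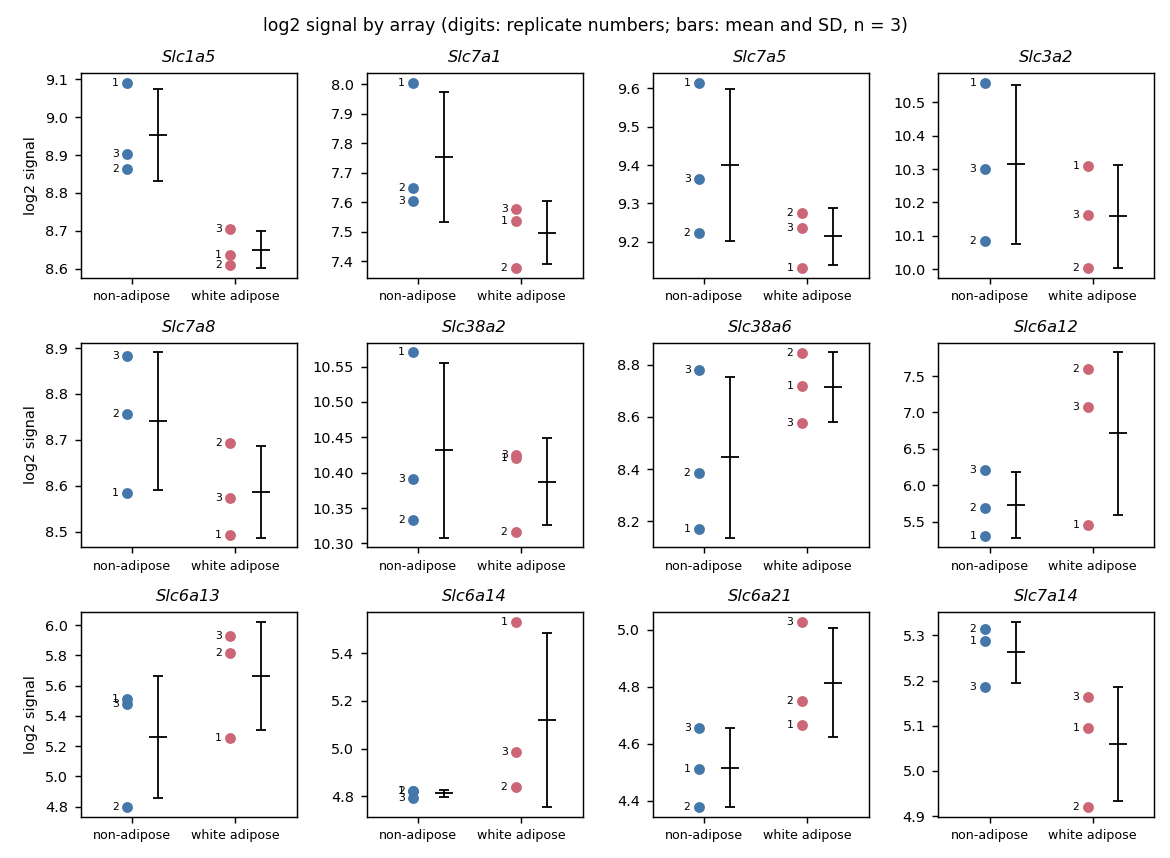
Log2 signal of 12 members in each array, with digits for the replicate number and bars for the mean and SD (n = 3 per site); each panel has its own vertical range, which does not start at 0. Slc1a5, Slc7a1 and Slc7a14 (lower) and Slc6a14 and Slc6a21 (higher) have sites that do not overlap, whereas Slc6a12 is high in white adipose replicates 2 and 3 and low in replicate 1. The mean signals of Slc7a14, Slc6a14 and Slc6a21 lie under the olfactory level.

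Sodium-coupled neutral transporters of the Slc38 family had a higher mean in white adipose tumours for 8 of 11 and a lower one for 3. Over all genes the mean was higher for 11033 and lower for 11147 of 22180. The Slc38 median difference was 0.071, beside a median SE of 0.099, and none was at an unadjusted limma p under 0.05. Slc38a2 (SNAT2), the system A carrier induced by amino acid shortage, read 10.57, 10.33 and 10.39 in non-adipose and 10.42, 10.32 and 10.43 in white adipose arrays, with a difference of -0.044 (SE 0.083; 95% interval -0.25 to 0.16). Slc38a1 (SNAT1), a glutamine loader, read 6.96, 7.03 and 7.04 against 6.95, 7.04 and 7.29 and differed by 0.080 (SE 0.099). Neither shows a site pattern beyond its spread. Slc38a9, the lysosomal arginine sensor that signals to mTORC1, read 7.10, 7.02 and 7.32 against 7.19, 7.38 and 7.29 and differed by 0.14 (SE 0.10), from 0.074 without non-adipose replicate 2 to 0.22 without non-adipose replicate 3, where the unadjusted limma p was 0.0471. Slc38a6, a less studied member of the family, had the largest difference of it, 0.27 (SE 0.17), from 8.17, 8.38 and 8.78 in non-adipose and 8.72, 8.85 and 8.58 in white adipose arrays. The groups overlapped through non-adipose replicate 3. The difference was 0.13 without non-adipose replicate 1 and 0.44 without non-adipose replicate 3, where the unadjusted limma p was 0.0132. For Slc38a9 and Slc38a6 alike, non-adipose replicate 3 alone made the groups overlap, so a smaller p without it was built in. In that fit the adjusted limma p was 0.873 for both, and 2.52% of all genes were higher at an unadjusted p under 0.05.

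Slc43 and Slc36 members had small differences. Slc43a2 (LAT4), a facilitated carrier of large neutral amino acids, read 6.83, 6.87 and 7.10 against 6.99, 6.99 and 6.93 and differed by 0.040 (SE 0.087). Slc36a1 (PAT1), a proton-coupled carrier of glycine, alanine and proline that also sits on lysosomes, read 7.33, 7.69 and 7.48 against 7.48, 8.01 and 7.65 and differed by 0.22 (SE 0.16), from 0.068 without white adipose replicate 2, its highest array, to 0.33 without white adipose replicate 1. Over all genes, 11033 of 22180 had a higher mean in white adipose tumours. All 4 Slc36 transporters did, by 0.013 to 0.22. Excitatory amino acid transporters, which take up glutamate and aspartate, had a higher mean in 4 of 5, with a median of 0.082. Slc1a6, the member of that group with the highest signal, read 5.33, 5.50 and 5.60 against 5.60, 5.56 and 5.66, a difference of 0.13 (SE 0.086), or 0.057 without non-adipose replicate 1, at a signal close to the olfactory level.

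The largest difference of any member belonged to Slc6a12 (BGT1), the carrier of betaine and GABA that cells use as an osmolyte importer. It read 5.30, 5.69 and 6.21 in non-adipose and 5.46, 7.60 and 7.08 in white adipose arrays. White adipose replicates 2 and 3 were the highest of the 6, whereas replicate 1 lay below 2 of the non-adipose arrays, so the groups overlapped. The difference was 0.98 (SE 0.57; 95% interval -0.39 to 2.36), 1.97-fold higher, with an unadjusted p of 0.132, and it ran from 0.54 without white adipose replicate 2 to 1.61 without white adipose replicate 1. Of the 10 fibroblast and pericyte markers, Lum, Pdgfra and Dcn were also highest in white adipose replicates 2 and 3 and then non-adipose replicate 3. Lum read 9.32, 9.38 and 10.48 against 10.10, 11.35 and 10.70, and Pdgfra 9.54, 9.96 and 10.83 against 10.35, 11.14 and 10.88. Col1a1, Col1a2, Col3a1, Acta2 and Thy1 were instead highest in white adipose replicate 1, where Slc6a12 was low. Col1a1 read 11.16 in that array and Col1a2 10.44. Pdgfrb and Rgs5 had neither order. The list mean was 9.73 to 9.97 in non-adipose and 9.75 to 10.23 in white adipose arrays, highest in white adipose replicate 1, and its part in the Slc6a12 values was not tested. Slc6a13 (GAT2), another carrier of GABA and betaine and the neighbouring gene in the RefSeq order, read 5.51, 4.80 and 5.48 against 5.26, 5.81 and 5.93. It too was highest in white adipose replicates 2 and 3, with a difference of 0.40 (SE 0.26) that ran from 0.17 without non-adipose replicate 2, its lowest array, to 0.61 without white adipose replicate 1.

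The other Slc6 carriers were mostly flat or rested on 1 array. Slc6a6 (TauT), the taurine carrier, read 9.83, 9.88 and 9.75 against 9.88, 9.71 and 9.75 and differed by -0.042 (SE 0.073). Slc6a14 (ATB0,+), a concentrative carrier of neutral and cationic amino acids, had a mean signal under the olfactory level. It read 4.82, 4.82 and 4.79 against 5.53, 4.84 and 4.98. Its difference of 0.31 (SE 0.18) became 0.10 when white adipose replicate 1 was left out, and 0.45 when replicate 2 was. The creatine carrier Slc6a8, singled out after its values were seen, was also highest in that array: 9.19, 9.18 and 9.29 in non-adipose and 9.76, 9.08 and 8.85 in white adipose arrays, a difference of 0.0069 (SE 0.23). The list mean of the 9 measured skin keratinocyte markers was highest in the same array, white adipose replicate 1 (8.23). Every marker had its highest value in it but Trp63, which was highest in non-adipose replicate 3. The part of these markers in the Slc6a14 and Slc6a8 values was not tested. Slc6a21, named from its sequence family, read 4.51, 4.38 and 4.66 against 4.67, 4.75 and 5.03, with a difference of 0.30 (SE 0.12) and an unadjusted limma p of 0.0476 (adjusted p = 0.936). That p was above 0.05 in 4 of the 6 fits with an array left out, and the difference fell to 0.19 without white adipose replicate 3. The sites met almost edge to edge, and the signal lay under the olfactory level.

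Of the other members, the neural and renal carriers of the Slc6 family (such as the dopamine carrier Slc6a3, the noradrenaline carrier Slc6a2 and the gut and kidney carrier Slc6a19) differed by -0.12 to 0.22, and none was at an unadjusted p under 0.05. The rule also took in Slc7a6os, Slc36a1os and Slc6a19os, which are named for lying opposite a transporter gene and are not transporters; they differed by -0.096, -0.18 and -0.023. Slc6a9 was left out because its probe set carries a second symbol.

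As a set, the members did not share the 2 highest arrays of the amino acid response genes. A list of 28 measured ATF4 and amino acid response genes without transporters had a mean of 8.28, 7.90 and 7.98 in non-adipose and 8.13, 7.72 and 7.88 in white adipose arrays. Replicate 1 was thus highest in each site, and white adipose replicate 2 lowest of all. The 2 highest arrays were the 2 replicates 1 for 17 of the 28 response genes (60.7%), for 5 of the 64 members (7.81%: Slc7a11, Slc3a2, Slc1a4, Slc6a20a and Slc36a1os) and for 9.27% of all genes, so the members' share was near the background. Slc7a11, whose signal is under the olfactory level, was the 1 member of 64 that ranked all 6 arrays as the list did, beside 0.334% of all genes. White adipose replicate 2 was the lowest array for 20 of the 28 (71.4%), for 15 of the 64 (23.4%) and for 15.2% of all genes. Here the members' share was above the background. The order was noticed in these arrays, so the counts describe it and do not test it.

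Asns, Chac1 and Ddit4, picked after their values were seen, show its size. Asns, which makes asparagine, read 9.17, 8.35 and 8.36 in non-adipose and 8.67, 8.02 and 8.30 in white adipose arrays. Chac1, which degrades glutathione, read 6.84, 6.52 and 6.55 against 6.62, 6.23 and 6.50, and Ddit4, an inhibitor of mTORC1, 8.13, 7.79 and 7.78 against 8.32, 6.97 and 7.43. Both replicates 1 are highest in each of the 3 genes. Slc1a5 did not rank the 6 arrays as the list did. At white adipose replicate 1 the list was at 8.13, its second highest value, and Slc1a5 read 8.64, its second lowest. The list mean of 7 measured mast cell markers, 3 of them above the olfactory level, was also highest in the replicates 1. It was 5.57, 5.04 and 4.70 in non-adipose and 6.28, 4.75 and 4.74 in white adipose arrays. Mcpt4, Cma1, Tpsb2 and Cpa3 had both replicates 1 highest, while Kit, Tpsab1 and Fcer1a did not. The part of these markers in the array order was not tested.

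**Figure D4:**
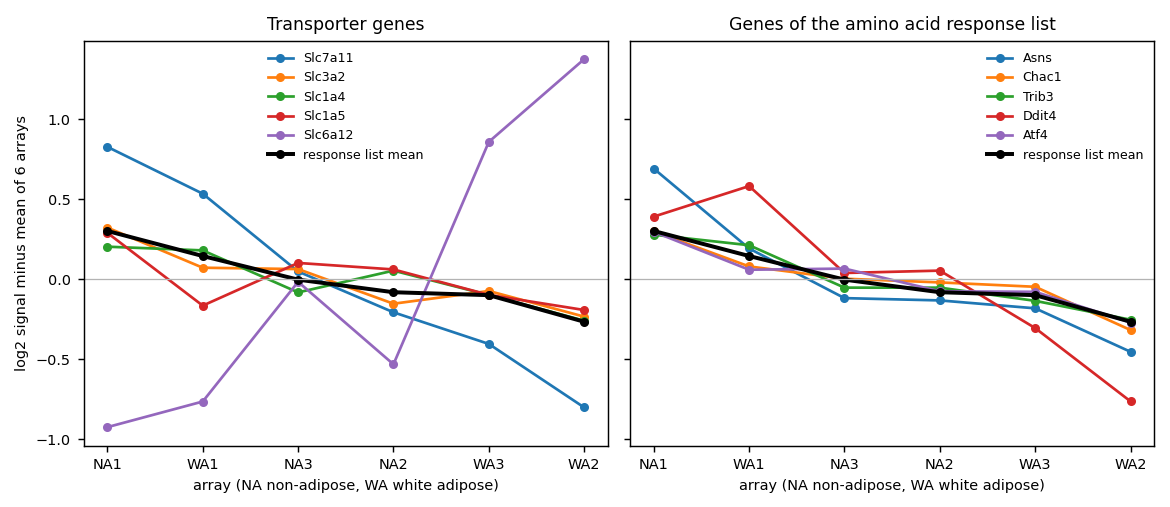
Log2 signal minus the mean of the 6 arrays for transporter genes (left) and amino acid response genes (right), with the arrays (NA non-adipose, WA white adipose) sorted by the mean of the 28-gene response list, the black line. Slc7a11 falls in step with the list from non-adipose replicate 1 to white adipose replicate 2, Slc1a5 drops at white adipose replicate 1, and Slc6a12 runs the other way at the end.

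By site, no gene of the lists around the transporters passed an adjusted p of 0.05 (limma). Of the 28 response genes, the white adipose mean was below the non-adipose one for 25 and above it for 3, with a median of -0.16. Over all genes it was below for 11147 of 22180. The sites overlapped in the list mean, 7.90 to 8.28 in non-adipose and 7.72 to 8.13 in white adipose arrays. Many of these genes shared the array order given above, so they are not independent observations of a site difference. At an unadjusted p under 0.05, 1 was higher, the stress protein gene Nupr1 at 0.39 (SE 0.15), and none was lower. The shares of all genes were 1.66% and 2.13%. Of 20 amino acid carriers from other families, 2 were higher at that level and none lower, against 1.66% and 2.13% of all genes. The 2 were Ctns, the lysosomal cystine exporter, at 0.31 (SE 0.11), and Slc25a18, a mitochondrial glutamate carrier, at 0.22 (SE 0.081). In so short a list they are no result about these carriers as a set. Ctns read 7.18, 7.21 and 7.54 against 7.60, 7.71 and 7.57, so the sites did not overlap, as for 3.34% of all genes in that direction. Of 33 genes of amino acid sensing by mTORC1, none was at an unadjusted p under 0.05 and the median was -0.020; the folliculin gene Flcn was at 0.16 (SE 0.075). Sesn3, a sestrin that restrains mTORC1, read 8.91, 9.06 and 10.13 against 9.23, 10.74 and 10.50, a difference of 0.79 (SE 0.49), with the same 2 high white adipose arrays as Slc6a12. Of 17 cystine, glutathione and ferroptosis genes none was at that level, the nearest being Acsl4 at 0.21 (SE 0.091) and Gclm, a subunit of the enzyme that starts glutathione synthesis, at -0.15 (SE 0.073). Nor was any of 23 enzymes of glutamine, arginine and branched-chain metabolism; Nos2, the inducible nitric oxide synthase that uses arginine, was at -0.63 (SE 0.36) and Aldh18a1, which makes the precursor of proline, at -0.21 (SE 0.14).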

How the data were processed

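The authors' deposited table gives log2 signals for 41345 probe sets in 6 arrays, 1 tumour each; per the submitters' processing notes they come from Affymetrix Expression Console, with version, background correction, summarisation and normalization not given. If arrays were equalised, a change shared by most genes would be lost. Probe sets were named through the platform annotation (23521 with 1 symbol), and each gene kept its brightest probe set by mean signal, 22180 genes in all; 64 of 64 member symbols matched RefSeq. White adipose was set against non-adipose over all 22180 genes without a block, by lmFit and eBayes (limma 3.58.1, R 4.3.3), with the Benjamini-Hochberg adjustment taken across the whole table and a threshold of 0.05. The fit was tested on simulated data. That test used independent noise and changes larger than any member's difference in the main fit, so it does not bear on smaller differences. The labels call the samples biological replicates from separate mice.

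The members, lists and tests were chosen with earlier results of these data known. Values in each array are given for members at an unadjusted p under 0.05, the 5 largest differences each way, 17 transporters named in every case and 1 gene for a role otherwise unnamed. Alternatives were other scalings, filters, probe sets, weights, moderation, a replicate block and each array left out.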

Additional observations from a re-analysis of the deposited data

How the results depend on the processing

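No member passed an adjusted p of 0.05 under any of the 14 alternatives, with adjusted p-values of the 23 named members between 0.517 and 1. Counts at an unadjusted p under 0.05 (1 higher and 1 lower as reported) were small and moved: 3 higher with array weights, 3 higher and 2 lower with the replicate block, 2 lower after quantile normalization, 0 higher and 2 lower with the dimmest genes (percentile 25 and under) left out, 0 lower with the mean of all probe sets (where Slc1a5 was at -0.16), and 0 higher above the olfactory level, a filter chosen after the data were seen. With 1 array left out they ran from 0 to 3 higher and from 1 to 3 lower. The shares of all genes higher and lower moved too, from 1.66% and 2.13% to 3.28% and 4.03% with array weights, 2.27% and 2.60% with the block, and 3.69% and 4.42% without white adipose replicate 1. The members' median stayed between -0.027 and 0.026. Of the 23 named members, 18 kept their direction throughout. The others, all near 0, turned only with an array left out: Slc7a2 ran from -0.28 to 0.14, Slc7a7 from -0.067 to 0.10, Slc38a1 from -0.018 to 0.15, Slc38a2 from -0.093 to 0.026 and Slc43a2 from -0.012 to 0.12. The replicate numbers did not clearly pair the samples: deviations from the group means correlated at 0.14, 0.064 and 0.064 for numbers 1, 2 and 3, and non-adipose replicate 3 correlated better with white adipose replicate 2 (0.086). With that block Slc7a11 kept its difference of -0.45 at an unadjusted limma p of 0.00554. No detection calls were used, so the 31 members under the olfactory level are least certain.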

Other observations

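Exactly equal values in different arrays were common in the deposited table. They occurred in at least 2 of the 6 arrays for 22 of the 64 members, beside 35.3% of all genes, and in at least 3 arrays for 10 members, beside 13.8% of all genes. The 10 were Slc1a2, Slc43a3, Slc6a5, Slc6a7, Slc6a16, Slc6a18, Slc6a19, Slc7a3, Slc7a12 and Slc7a15. The spread between the arrays that share a value is then 0 for these probe sets.

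Slc36a4, a member of the Slc36 family, had probe sets of different brightness. The kept one read 10.68, 10.53 and 10.40 in non-adipose and 10.35, 10.53 and 10.85 in white adipose arrays, and the other had a mean of 7.32 over the 6 arrays; the differences were 0.039 (SE 0.14) and 0.061 (SE 0.063).

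Neighbouring members in the RefSeq gene order had differences of the same sign in 7 of 9 pairs, the exceptions being Slc38a2 beside Slc38a1 and beside Slc38a4. The share over all neighbouring genes was not counted, and Slc36a2 and Slc38a2 are each counted repeatedly. The count is therefore no result about neighbouring transporters.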
